A study of Mus musculus with 27 samples.

Results

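Hepatic lipase, lipoprotein lipase and endothelial lipase (Lipc, Lpl and Lipg), the angiopoietin-like genes Angptl4 and Angptl6, the lipoprotein receptor gene Vldlr and the fatty acid translocase gene Cd36 were followed in regenerating mouse liver. The 7 genes were taken by symbol from a table of 54532 genes, in which each had 1 row. The 27 RNA libraries came from livers of C57/BL6J mice, all wild-type. The groups were sham operation (n = 5, with no time in the labels), resection of 70% of the liver with sampling at 24 h (PHx24, n = 7) or 48 h (PHx48, n = 7), and the same resection in mice given etomoxir (PHx24_ETO and PHx48_ETO, n = 4 each). Etomoxir blocks carnitine palmitoyltransferase 1, which lets long-chain fatty acids into mitochondria. Mice received 12.5 mg/kg by the intraperitoneal route, 4 h ahead of the resection, with another dose at 24 h in the PHx48_ETO mice. The labels do not say whether untreated mice received vehicle or whether each library is a separate mouse, so p-values measure the spread between libraries, which may be technical. Whole liver was sequenced, so fewer cells of a type and less RNA per cell cannot be told apart.

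Lipases of this family are secreted and act on lipoproteins at the surface of blood vessels. Lipoprotein lipase frees fatty acids from triglyceride in chylomicrons and very low density lipoproteins, chiefly in muscle and fat, and its mRNA is low in the adult liver. Hepatic lipase is made by hepatocytes and works on remnants and high density lipoproteins, while endothelial lipase acts mostly on phospholipid of high density lipoproteins. Angptl4 is a secreted inhibitor of lipoprotein lipase whose gene is switched on by fatty acid receptors of the PPAR family, during fasting for example. Angptl6 belongs to the same family and is better known as a circulating growth factor made by the liver. Cd36 binds long-chain fatty acids and oxidised lipoproteins at the cell surface, and Vldlr binds triglyceride-rich particles, mainly outside the liver.

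The libraries held 14903757 to 18446372 counts. Skeletal muscle transcripts stood out in sham 1, PHx24 1 and PHx48 3. There 12 muscle genes summed to 4767, 1790 and 577 FPKM (fragments per kilobase, scaled by a library size other than the total count). The other 24 libraries held 0.397 to 85.6 FPKM, with a median of 0.927. The 85.6 FPKM were in PHx48_ETO 4, which also held the highest Lpl, Vldlr and Cd36 of its group. The part of muscle RNA in these PHx48_ETO 4 values was not tested. Adipocyte genes other than Car3 were also highest in their group in sham 1, PHx24 1 and PHx48 3, at 233, 73.2 and 166 FPKM in sum. The median of this sum was 45.9 FPKM in sham, 7.38 in PHx24, 13.9 in PHx24_ETO, 4.67 in PHx48 and 4.79 in PHx48_ETO. Fat transcripts in sham were thus not confined to its highest library, and leaving out libraries may not remove them. Their part in the differences from sham was not tested. Pancreatic genes were highest in sham 2, at 1018 FPKM. Values are given with and without sham 1, sham 2, PHx24 1 and PHx48 3 for several of the members and lists. The 10 hepatocyte genes were detected in each group, with a median sum of 43874 FPKM in sham, 30140 in PHx24, 35095 in PHx24_ETO, 38584 in PHx48 and 44195 in PHx48_ETO.

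The RefSeq promoter table (GRCm38.p6) held windows for 4 of the 7 genes, namely Lipc, Cd36, Angptl6 and Vldlr. The windows of Lipc and Cd36 are printed because Lipc passed the test in 3 of the comparisons below and Cd36 is the fatty acid transporter of the set. Each line gives the 250 bases before a start, 5′ to 3′ on the strand of the gene, with matches to a searched motif in capitals. The first Lipc window lies at chr9:70952222-70952471 and the second at chr9:70934809-70935058 inside the gene. The Cd36 window lies at chr5:17835897-17836146, also inside its gene. All 3 are on the minus strand.
Lipc start 1: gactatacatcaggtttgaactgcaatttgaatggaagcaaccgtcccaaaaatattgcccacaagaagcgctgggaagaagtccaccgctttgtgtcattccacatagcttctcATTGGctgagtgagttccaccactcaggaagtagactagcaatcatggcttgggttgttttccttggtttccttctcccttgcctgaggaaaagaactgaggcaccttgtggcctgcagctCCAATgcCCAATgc
Lipc start 2: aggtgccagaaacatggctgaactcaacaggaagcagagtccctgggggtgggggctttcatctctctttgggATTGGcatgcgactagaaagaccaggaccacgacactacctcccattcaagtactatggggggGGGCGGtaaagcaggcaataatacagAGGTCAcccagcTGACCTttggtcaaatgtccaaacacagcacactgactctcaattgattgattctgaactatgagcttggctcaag
Cd36 start 1: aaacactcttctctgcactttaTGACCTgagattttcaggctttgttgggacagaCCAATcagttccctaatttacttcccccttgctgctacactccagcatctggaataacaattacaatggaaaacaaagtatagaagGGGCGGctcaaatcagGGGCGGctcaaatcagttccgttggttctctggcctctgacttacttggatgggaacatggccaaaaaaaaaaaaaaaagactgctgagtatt
The second Lipc window held the nuclear receptor element AGGTCA on each strand, with 6 bases between the matches, and the Cd36 window held it once, on the opposite strand. This element occurred in 16.3% of the 32817 RefSeq windows of 300 bases (250 before and 50 after a start, both strands searched). The CCAAT box occurred in all 3 printed windows and in 37.4% of all windows. The GC box GGGCGG occurred in the second Lipc window and at 2 places in the Cd36 window, and in 35.6% of all windows. The TATA box TATAAA, the E-box CACGTG, the HNF1 element GTTAAT and the HNF4 core CAAAGTCCA, also searched, were in none of the 3 printed windows and in 13.6%, 7.15%, 7.1% and 0.475% of all windows. A match describes the sequence and is not evidence of binding.

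In sham liver the order of the levels per length, by the median of the 5 libraries, was Lipc (89.6 FPKM), Angptl4 (53.6 FPKM), Angptl6 (7.84 FPKM), Cd36 (5.29 FPKM), Lpl (5.01 FPKM), Lipg (1.28 FPKM) and Vldlr (0.150 FPKM). Hepatic lipase therefore led the lipases, with a median of 93.8% of the summed FPKM of the 3 lipase genes in sham and medians of 81.9% to 89.6% in the other groups. The deposited length of Lpl, 10478 bases, covers all its annotated exons and is 2.55 times the longest principal transcript in GENCODE M21 (4115 bases). By that length the Lpl median in sham was 12.8 FPKM, above Cd36. The ratio was at most 1.26 for the other 6 genes. The lipase shares above use the deposited lengths, and by the principal lengths the part of Lpl is larger. By those lengths the medians of Lipc and Lpl were 100 and 12.8 FPKM in sham, and 48.5 and 15.1 FPKM in PHx48. Vldlr reached 1 FPKM in fewer than 4 libraries, so 6 of the 7 genes entered the main test.

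**Figure D1:**
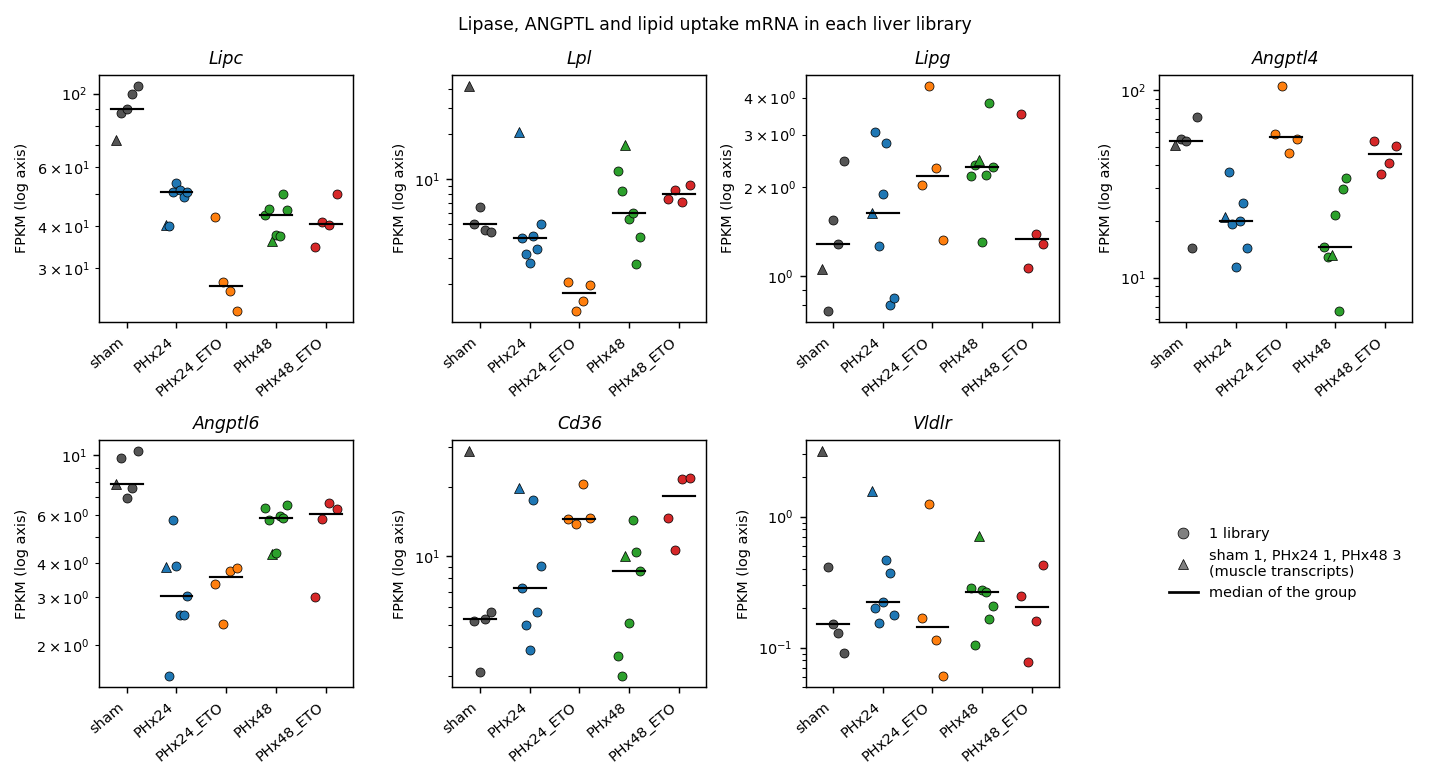
FPKM on a log axis of the 7 genes in each library of the 5 groups, with a line at the group median and triangles for sham 1, PHx24 1 and PHx48 3. The triangles are the highest points for Lpl in all 3 groups, and Angptl4 of both etomoxir groups lies above every library of the same time without etomoxir.

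Lipc (ENSMUSG00000032207, GRCm38 chromosome 9, 70798128 to 70952226, minus strand), which encodes hepatic lipase, fell after resection and fell further with etomoxir at 24 h. The 5 sham libraries held 72.6, 87.6, 89.6, 99.7 and 106 FPKM, and the PHx24 libraries ranged from 39.9 to 53.8 FPKM with a median of 50.7 FPKM. The PHx48 libraries ranged from 36.1 to 49.9 FPKM with a median of 43.3 FPKM. Every resected liver without etomoxir was below every sham liver. The share of all genes with groups separated in this way was not counted, here or for the genes below. The log2 fold change from sham was -0.90 at 24 h (SE 0.13, adjusted p = 7.55e-06) and -1.10 at 48 h (SE 0.13, adjusted p = 4.02e-07), where p is from the quasi-likelihood test of edgeR after Benjamini-Hochberg adjustment across 12376 genes, as for every adjusted p below unless another test is named. The 2 comparisons share the sham libraries. Hepatocyte markers moved in the same comparisons, with 5 of 10 lower and 1 higher at 24 h (median -0.33) and 4 lower and 0 higher at 48 h (median -0.31), and their part in the falls of Lipc, Angptl4 and Angptl6 was not tested. From 24 h to 48 h the change was -0.20 (adjusted p = 0.314, 95% interval -0.44 to 0.05 without adjustment).

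With etomoxir at 24 h the Lipc values were 22.3, 25.6, 27.2 and 42.7 FPKM. Of these 4 livers 3 lay below the lowest PHx24 library, and PHx24_ETO 1 lay inside the PHx24 range. The log2 fold change against PHx24 was -0.72 (SE 0.14, adjusted p = 0.00879), and -0.96 without PHx24_ETO 1. The call was lost when only these 2 groups were fitted (adjusted p = 0.0815), a fit in which 0 of all genes passed. At 48 h etomoxir livers held 34.6, 40.3, 41.2 and 50.1 FPKM, around the PHx48 values, and the change was -0.02 (adjusted p = 0.987, 95% interval -0.30 to 0.27 without adjustment). Taken as 48 h minus 24 h, the effects of etomoxir on Lipc differed by 0.70 (SE 0.20) and did not pass (adjusted p = 0.26), although it did without PHx24_ETO 1 (0.94, adjusted p = 0.00317).

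Lpl (ENSMUSG00000015568, chromosome 8, 68880491 to 68907448, plus strand), the lipase of muscle and fat, was lowest in the etomoxir livers at 24 h. Sham 1 held 42.0 FPKM and the other sham libraries 4.48, 4.59, 5.01 and 6.58 FPKM. PHx24 libraries ranged from 2.76 to 20.6 FPKM (median 4.05 FPKM) and PHx48 libraries from 2.71 to 16.9 FPKM (median 5.94 FPKM), with PHx24 1 and PHx48 3 the highest. The libraries with muscle transcripts thus held the top Lpl value of each group that has one. The change from sham did not pass at 24 h (-1.03, adjusted p = 0.159) or 48 h (-0.69, adjusted p = 0.354). Leaving out sham 1 turned both directions (0.28 and 0.63, adjusted p = 0.689 and 0.33), and leaving out PHx24 1 made the 24 h fall pass (-1.76, adjusted p = 0.00833).

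Etomoxir livers at 24 h held 1.33, 1.54, 1.96 and 2.08 FPKM of Lpl, from 228 to 370 counts, below all 7 PHx24 libraries. The log2 fold change of -1.87 (SE 0.67) did not pass with all libraries (adjusted p = 0.114). It passed without the 4 libraries named above (-1.15, SE 0.29, adjusted p = 0.0357), without sham 1 (-1.87, adjusted p = 0.0462) and in DESeq2 (-1.86, adjusted p = 0.0468). Muscle genes were near 0 in the PHx24_ETO group, with sums of at most 0.956 FPKM and 7 of 12 genes at 0 in all 4 libraries. Kupffer cell markers (8 of 8 tested) summed to 47.8, 98.0, 103 and 147 FPKM there, against 130 to 200 FPKM in PHx24, with 1 of 8 lower and a median log2 fold change of -0.98. Their part in the Lpl value was not tested.

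At 48 h the 4 etomoxir livers held 7.10, 7.38, 8.45 and 9.16 FPKM of Lpl, inside the range of PHx48 and close together. The change was 0.02 (SE 0.61, adjusted p = 0.998). The effect of etomoxir on Lpl differed between the times by 1.89 (SE 0.87, adjusted p = 0.556), which did not pass.

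Lipg (ENSMUSG00000053846, chromosome 18, 74939322 to 74961263, minus strand), which encodes endothelial lipase, was low throughout, with 42 to 273 counts a library. Sham libraries held 0.765, 1.06, 1.28, 1.54 and 2.44 FPKM, PHx24 libraries 0.800 to 3.06 FPKM (median 1.63 FPKM) and PHx48 libraries 1.31 to 3.83 FPKM (median 2.33 FPKM). All neighbouring groups overlapped. The change at 48 h was 0.77 (SE 0.37, adjusted p = 0.107) and at 24 h 0.34 (adjusted p = 0.508). The 48 h value passed without sham 5 (1.02, adjusted p = 0.0498), with library totals as the scale (1.02, adjusted p = 0.0337), in TPM, values rescaled to 1 total in each library (0.92, limma adjusted p = 0.0145) and when only the compared groups were fitted (0.76, adjusted p = 0.0442). With etomoxir Lipg was at 1.32, 2.04, 2.32 and 4.38 FPKM at 24 h and 1.07, 1.29, 1.38 and 3.52 FPKM at 48 h, and neither change passed (0.50 and -0.38, adjusted p = 0.494 and 0.863).

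Angptl4 (ENSMUSG00000002289, chromosome 17, 33773750 to 33781575, minus strand), the inhibitor of lipoprotein lipase, fell after resection and was higher again with etomoxir. Sham libraries held 14.5, 50.7, 53.6, 55.2 and 71.7 FPKM, with sham 4 far below the other 4. PHx24 livers ranged from 11.3 to 36.4 FPKM (median 20.0 FPKM) and PHx48 livers from 6.64 to 34.2 FPKM (median 14.6 FPKM). Apart from sham 4, every sham library was above every resected library without etomoxir. The log2 fold change was -1.21 at 24 h (SE 0.35, adjusted p = 0.00843) and -1.37 at 48 h (SE 0.35, adjusted p = 0.00306). The 24 h call was lost without the 4 libraries (sham 1, sham 2, PHx24 1 and PHx48 3), at -1.13 (adjusted p = 0.0558), and in TPM (-0.90, limma adjusted p = 0.0601).

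With etomoxir the 24 h livers held 46.3, 54.9, 58.0 and 106 FPKM of Angptl4, and all 4 were above the highest PHx24 library. The rise was 1.63 on the log2 scale, or 3.10-fold (SE 0.37, adjusted p = 0.0166). It did not pass without PHx24_ETO 2, the highest library (1.32, adjusted p = 0.0874), or when only the 2 groups were fitted (1.64, adjusted p = 0.0551). At 48 h the etomoxir livers held 35.8, 40.8, 50.7 and 53.8 FPKM, again all above the highest PHx48 library. That difference of 1.26 (SE 0.37) did not pass (adjusted p = 0.246, and 0.0536 in DESeq2), in a comparison where 26 genes passed. How many of all genes had no overlap between these groups was not counted. The effects at the 2 times differed by -0.38 (SE 0.53, adjusted p = 0.861). The etomoxir livers at 24 h overlapped the sham range, from 14.5 to 71.7 FPKM.

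Angptl6 (ENSMUSG00000038742, chromosome 9, 20873808 to 20879727, minus strand) fell at 24 h and rose again by 48 h. Sham libraries held 6.95, 7.61, 7.84, 9.81 and 10.4 FPKM. PHx24 libraries ranged from 1.53 to 5.79 FPKM (median 3.04 FPKM) and PHx48 libraries from 4.31 to 6.56 FPKM (median 5.86 FPKM). All resected livers without etomoxir were below all sham livers, and the 2 times overlapped each other. The change was -1.33 at 24 h (SE 0.23, adjusted p = 6.39e-05), a 2.52-fold fall, and 0.75 from 24 h to 48 h (SE 0.21, adjusted p = 0.0216). The rise from 24 h to 48 h missed the threshold with no filter on low genes (0.73, adjusted p = 0.0509).

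At 48 h Angptl6 was still 0.59 below sham on the log2 scale (SE 0.23, adjusted p = 0.0424). This call was lost under 12 of 38 alternatives, with values from -0.67 to -0.22 over all 38. They included library totals as the scale (-0.37, adjusted p = 0.175), TPM (-0.22, limma adjusted p = 0.338), the fit without the 4 libraries (-0.50, adjusted p = 0.192) and those without sham 2, sham 5 or any 1 of PHx48 2 to 6 (adjusted p from 0.053 to 0.0988). Etomoxir livers held 2.39, 3.35, 3.74 and 3.85 FPKM at 24 h and 2.997, 5.80, 6.31 and 6.66 FPKM at 48 h. Neither etomoxir difference passed (-0.02 and -0.05, adjusted p = 0.976 and 0.978, 95% intervals -0.53 to 0.50 and -0.55 to 0.46 without adjustment). Exons of Angptl6 share 265 bases with A230050P20Rik on the other strand, and the counting is not stated to use strand, so reads of the 2 genes cannot be told apart there.

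Cd36 (ENSMUSG00000002944, chromosome 5, 17781690 to 17888801, minus strand), the fatty acid translocase, varied widely within sham, PHx24 and PHx48. Sham 1 held 28.8 FPKM and the other sham libraries 3.10, 5.21, 5.29 and 5.69 FPKM. PHx24 livers ranged from 3.89 to 19.8 FPKM (median 7.27 FPKM), with PHx24 1 and PHx24 5 far above the rest, and PHx48 livers from 2.99 to 14.4 FPKM (median 8.65 FPKM). Resection gave no difference that passed, with 0.0027 at 24 h (SE 0.49, adjusted p = 0.998) and -0.32 at 48 h (SE 0.49, adjusted p = 0.645). Without sham 1 the values were 1.03 and 0.72 (adjusted p = 0.0654 and 0.198), and the group means were 4.69 ± 1.39 (SD, n = 3) in sham, 8.08 ± 4.99 (n = 6) in PHx24 and 7.53 ± 4.44 FPKM (n = 6) in PHx48 when all 4 libraries were left out.

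Cd36 was highest in the etomoxir groups. At 24 h these livers held 13.8, 14.5, 14.7 and 20.8 FPKM, within the range of PHx24 but above 5 of its 7 libraries. At 48 h they held 10.7, 14.8, 21.7 and 21.9 FPKM, and 3 of 4 exceeded every PHx48 library. The differences of 0.69 at 24 h (SE 0.51, adjusted p = 0.482) and 1.13 at 48 h (SE 0.51, adjusted p = 0.593) did not pass. Without the 4 libraries they were 0.96 and 1.21 (adjusted p = 0.174 and 0.331). The unadjusted 95% interval at 48 h ran from 0.08 to 2.18.

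Vldlr (ENSMUSG00000024924, chromosome 19, 27216484 to 27254231, plus strand), the receptor for very low density lipoproteins, was near the limit of what these libraries could measure, with 9 to 83 counts in most libraries. It exceeded 1 FPKM in sham 1 (3.17 FPKM), PHx24 1 (1.58 FPKM) and PHx24_ETO 2 (1.25 FPKM) and was next highest in PHx48 3 (0.706 FPKM). The other libraries lay between 0.0605 and 0.468 FPKM. Of these 4 high libraries 3 were those with muscle transcripts, whereas PHx24_ETO 2 had a muscle sum of 0.502 FPKM. In edgeR with its own filter on counts, which kept Vldlr, no comparison passed (adjusted p from 0.174 to 0.982). The change from sham was -0.79 at 24 h and -1.44 at 48 h, and turned to 1.19 and 0.54 without sham 1.

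**Figure D2:**
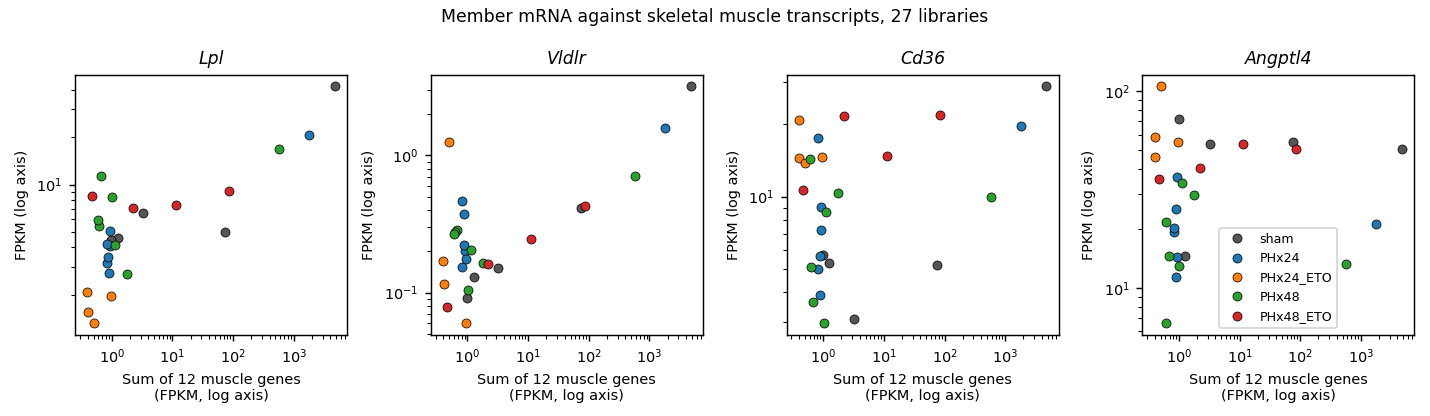
FPKM of Lpl, Vldlr, Cd36 and Angptl4 in each of the 27 libraries against the summed FPKM of 12 skeletal muscle genes, both axes logarithmic, coloured by group. The 3 libraries with muscle sums of 577 to 4767 FPKM hold the 3 highest Lpl values, while Angptl4 in them lies inside the range of the other libraries.

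In PHx24 against sham 3 of the 6 tested genes fell (Lipc, Angptl4 and Angptl6) and 0 rose, beside 15.8% of all genes lower, 19.1% higher and 35% called in all. At 48 h the same 3 genes were lower than in sham, beside 17% of all genes lower, 19.5% higher and 36.5% in all. From 24 h to 48 h 1 of 6 rose (Angptl6), beside 6.19% of all genes higher, 5.41% lower and 11.6% in all. Etomoxir at 24 h gave 1 higher (Angptl4) and 1 lower (Lipc), where 1.58% of all genes were higher, 1.33% lower and 2.9% called in all. At 48 h etomoxir gave 0 of 6, where 0.129% of all genes were higher, 0.0808% lower and 0.21% called in all. At an unadjusted p under 0.05 Angptl4 and Cd36 passed in that comparison, as did 8.11% of all genes, and DESeq2 called 0 of 6. The difference between the times passed for 0 of 6 members, where 0.0162% of all genes were higher, 0 lower and 0.0162% called in all. Lipc and Lpl had an unadjusted p under 0.05 there, as did 8.6% of all genes, and DESeq2 called 0 of 6.

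**Figure D3:**
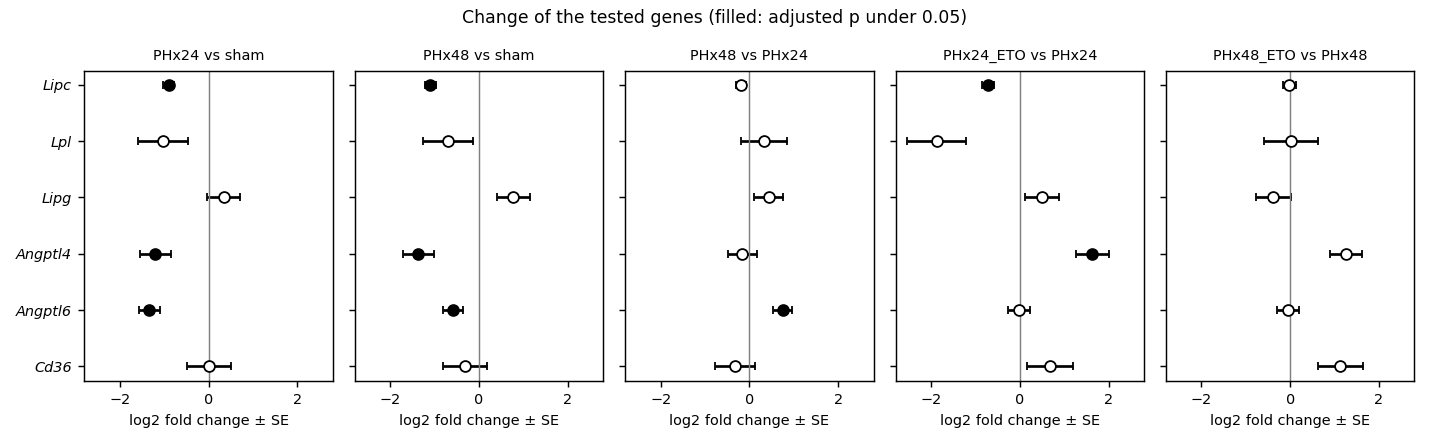
Log2 fold change with its SE of the 6 tested genes in 5 comparisons by edgeR, filled where the adjusted p was under 0.05. Lipc, Angptl4 and Angptl6 are filled and below 0 in both comparisons with sham, and Angptl4 lies at 1.63 and Lipc at -0.72 with etomoxir at 24 h.

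The proteins that mature, anchor and regulate these lipases were examined as a list of 16 genes, all tested. Counts in this and the following lists stand beside 35% of all genes called at 24 h against sham (19.1% higher, 15.8% lower), 36.5% at 48 h (19.5% higher, 17% lower), 11.6% from 24 h to 48 h, and 2.9% and 0.21% with etomoxir at 24 h and 48 h. At 24 h 3 rose and 4 fell against sham (median log2 fold change -0.05, all genes 0.0082), and at 48 h 3 rose and 6 fell (median -0.32, all genes 0.0095). Gpihbp1, which anchors lipoprotein lipase to capillaries, fell from 5.04 ± 1.08 FPKM in sham (SD, n = 5) to 2.91 ± 0.467 in PHx24 and 2.89 ± 0.48 in PHx48 (n = 7 each), by -0.78 and -0.79 (adjusted p = 0.0115 and 0.00987). Endothelial markers were lower in the same comparisons, with 3 of 9 tested genes at 24 h and 6 of 9 at 48 h, and 1 and 1 without the 4 libraries. Their part in the Gpihbp1 value was not tested. Lmf1, needed to fold the lipases, was 0.67 lower at 48 h (adjusted p = 0.000924), while its relative Lmf2 was 1.06 higher (adjusted p = 4.45e-08). Apoa5 had the largest fall of the list at 48 h (-1.01, adjusted p = 2.46e-05).

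Angptl8, another angiopoietin-like gene of the liver, had no call at 24 h (-0.55, adjusted p = 0.466), with sham libraries spread from 44.0 to 599.6 FPKM. The lipase cofactor Apoc2 stayed between 5.70 and 7.79 FPKM in group means with no call, and the inhibitor Apoc3 fell at 48 h (-0.42, adjusted p = 0.0334). Exons shared with other genes were looked for in the members only, so their part in the Apoc2 level was not tested. Apoa4, an apolipoprotein of triglyceride-rich particles, had the largest rise at 24 h (3.01, adjusted p = 3.69e-05) and at 48 h (1.17, adjusted p = 0.0442). With etomoxir at 24 h 2 of 16 rose and 0 fell. They were Apoa4, from 353 ± 228 to 1233 ± 157 FPKM (1.79, adjusted p = 0.0305), and Apoa5, which aids lipoprotein lipase (0.64, adjusted p = 0.0399). Without the 4 libraries 1 of 16 rose. At 48 h 0 of 16 passed with etomoxir.

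Of 15 fatty acid uptake and binding genes 7 fell and 0 rose at 24 h (median -0.78), and 6 fell and 2 rose at 48 h (median -0.69). The largest fall was of Cav1, the caveolae protein, at both times (-1.55 and -1.50, SE 0.56 and 0.55, adjusted p = 0.0317 and 0.0356). Cav1 and the counts of this list against sham are not given here without the 4 libraries. Fabp1, which binds fatty acids inside hepatocytes, fell by 1.23 and 0.93 on the log2 scale. The acyl-CoA synthetase gene Acsl4 had the largest rise at 48 h (0.96, adjusted p = 2.19e-05). With etomoxir 0 of 15 passed at either time, and 1 rose at 24 h when the 4 libraries were left out.

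Of 11 tested lipoprotein receptor genes 1 rose and 2 fell at 24 h (median -0.09), 3 of 11 beside 35% of all genes, and 4 rose and 3 fell at 48 h (median 0.07). Sdc1, the heparan sulfate proteoglycan that takes up remnants, rose from 54.9 ± 10.1 to 192 ± 38.6 FPKM at 24 h (1.83, adjusted p = 2.59e-09) and stood at 148 ± 18.2 FPKM at 48 h. Sort1, a sorting receptor, had the largest fall at 24 h (-0.77) and Mylip, a ligase that degrades lipoprotein receptors, at 48 h (-0.91). With etomoxir 1 of 11 rose at 24 h and 0 passed at 48 h.

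Among 10 tested genes of other lipases and plasma lipid transfer 1 rose and 4 fell at 24 h, and 2 rose and 5 fell at 48 h (medians -0.52 and -0.47). The carboxylesterase Ces3a had the largest fall at both times (-1.49 and -1.69). The lysosomal lipase Lipa rose at 24 h (0.30), and Pnpla3 had the largest rise at 48 h (1.65). Etomoxir at 24 h lowered Ces1d, another carboxylesterase, by -1.65 (adjusted p = 0.011), and at 48 h Mgll, the monoglyceride lipase, was higher (0.72, adjusted p = 0.0302). That call was lost without the 4 libraries, where 0 of 10 passed. Of 3 tested genes among the other angiopoietins and their receptors Angptl2 fell at 24 h (-0.74, adjusted p = 0.0196), and not without the 4 libraries.

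Of 12 lipid storage genes 4 fell at 24 h and 3 at 48 h (medians -0.27 and -0.38), and 2 and 2 without the 4 libraries. Cidea, also on the adipocyte list, fell most at 24 h (-3.60, SE 1.36, adjusted p = 0.0422) and G0s2, an inhibitor of lipolysis, at 48 h (-0.97). The part of fat transcripts in the Cidea value was not tested. Plin4, a lipid droplet coat gene, was the 1 called with etomoxir at 24 h (2.95, adjusted p = 0.03), with values from 2.34 to 64.2 FPKM in those 4 libraries. Of 19 transcription factor genes 3 rose and 4 fell at 24 h, and 2 rose and 6 fell at 48 h (medians -0.06 and -0.01). Without the 4 libraries 2 rose and 3 fell at 24 h, and 1 rose and 4 fell at 48 h. Ppara, the fatty acid receptor of hepatocytes that drives Angptl4 among other genes, fell by 0.91 and 0.87 on the log2 scale (adjusted p = 0.00165 and 0.00215), from 17.2 ± 6.42 to 8.98 ± 1.38 and 9.24 ± 1.86 FPKM. With etomoxir at 24 h it stood at 15.8 ± 3.45 FPKM (n = 4), a difference of 0.79 that did not pass (adjusted p = 0.0541). Pparg had no call in any comparison. The xenobiotic receptor Ahr had the largest rise at 24 h (1.35) and Srebf1, the factor of lipid synthesis, at 48 h (1.12). Srebf1 had, with etomoxir at 24 h, the largest fall (-1.44, adjusted p = 0.0208) and Srebf2 the largest rise called (0.66, adjusted p = 0.00741).

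Between 24 h and 48 h after resection fewer genes passed over the lists together than in either comparison with sham. The same held for all genes, with 11.6% called (6.19% higher and 5.41% lower). Of the lipase partners 1 rose (Lmf2, 0.41) and 2 fell, most of all Apoa4 (-1.84, adjusted p = 0.00357). Of the uptake genes 3 rose and 0 fell, led by the acyl-CoA synthetase gene Acsl5 (1.10). Of the receptor list 3 rose and 0 fell. Pnpla3 had the largest rise among the other lipases (3.11, adjusted p = 0.00125) and Mgll the largest fall (-0.75). Mogat1, a monoacylglycerol acyltransferase gene, was the 1 storage gene that rose (1.71, adjusted p = 0.0458). Among the transcription factors Atf4 rose (0.33) and 3 fell, led by the nuclear receptor gene Nr1i3 (-0.94).

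**Figure D4:**
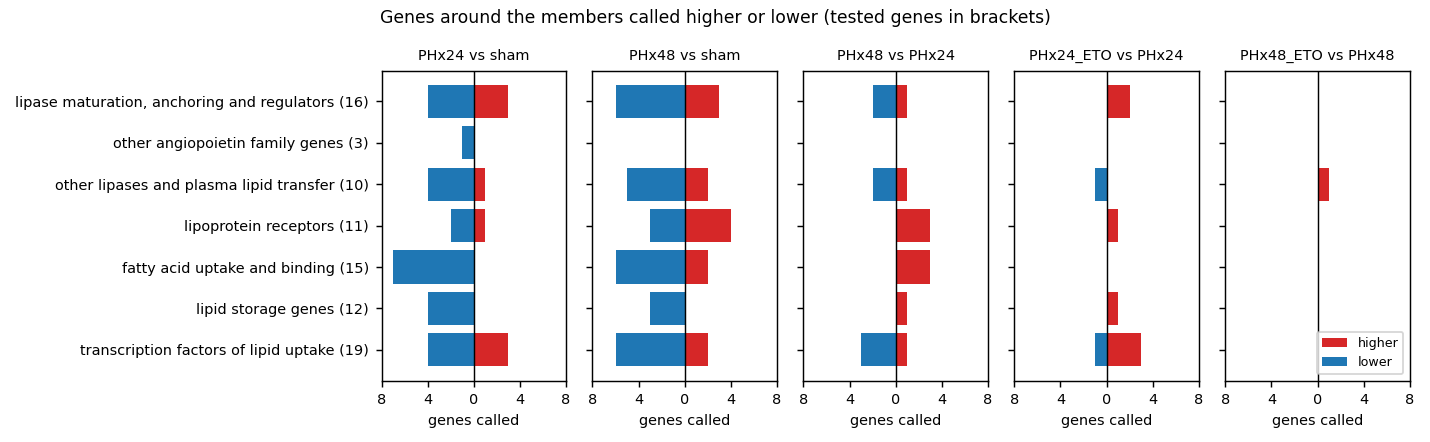
Number of genes called higher (right, red) or lower (left, blue) by edgeR in 7 lists around the members and 5 comparisons, with the genes tested in brackets. Fatty acid uptake and binding shows 7 lower and 0 higher at 24 h after resection, and 1 gene in all lists is called with etomoxir at 48 h.

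Over the 27 libraries the highest Pearson correlation of log2(FPKM + 1) between any pair was 0.61 (Angptl6 with Lipc) and the lowest -0.41 (Lipc with Cd36). The pair Lpl and Vldlr went from 0.60 to -0.22 when the 4 libraries were left out. Across all tested genes the 3 most like Lipc were Cyp2f2 (0.95), Nat8f1 (0.93) and Aox3 (0.93). Those most like Angptl6 were the collectin genes Colec11 (0.90) and Colec10 (0.89) and Pttg1 (0.85). Angptl4 was most like the mitochondrial carrier gene Slc25a47 (0.82), Cln8 (0.80) and Eci2 (0.77), which acts in the oxidation of unsaturated fatty acids. Cd36 was most like Crat, carnitine acetyltransferase (0.82), Tacc2 (0.70) and Acadl, a long-chain acyl-CoA dehydrogenase (0.69), but in the 23 libraries without the 4 like Cyp2c39 (0.81), Decr1 (0.80) and Papss1 (0.79).

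Lpl was most like Oxct1 (0.87), Lamb2 (0.86) and H19 (0.86), and Vldlr like Bin1 (0.92), Setd7 (0.91) and Fhl3 (0.90). None of these 6, and none of the 3 nearest to Cd36, was among the nearest 3 in the 23 libraries left without the 4. Lipg was most like Fbxw11 (0.75), Oxsr1 (0.72) and 1700017B05Rik (0.71). Of the nearest genes named for the others, Cyp2f2, Colec11, Colec10, Cln8, Eci2, Fbxw11 and Oxsr1 were among the nearest 3 in the 23 libraries too. These correlations describe libraries that share groups and size factors.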

How the data were processed

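The members and gene lists were chosen with earlier results of these data known. Per the labels' protocols, RNA was extracted with TRIzol and libraries were built with an NEBNext Ultra RNA kit. Tools listed in the submitters' processing notes are HISAT2 2.0.5, featureCounts 1.5.0-p3, fastp, CASAVA 1.8 and DESeq2 1.20.0, with builds GRCm38 and mm10. What each tool did, which annotation was used and whether counting used strand is not stated there. The deposited table holds raw read counts per gene and library, made by the authors, and FPKM that the authors computed from them. Tested on the table, the FPKM library size followed no library total.

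Raw counts of genes with at least 1 FPKM in at least 4 libraries (12376 genes) were fitted by quasi-likelihood in edgeR 4.0.16 (R 4.3.3), with TMM scaling and all 5 groups in 1 fit (Benjamini-Hochberg adjustment, call at an adjusted p under 0.05). The SE was taken as the size of the log2 fold change over the root of its F value. The biological coefficient of variation was 0.266. Alternatives were other scalings, filters and tools (DESeq2 1.42.0, limma 3.58.1 on log2(FPKM + 1), log2(FPKM + 0.1) and log2(TPM + 1), with TPM computed from the deposited FPKM), a replicate block, the compared groups alone, and leaving out libraries. Named genes were the members, the 3 genes most correlated with each, the largest called rise and fall of each list, and the direct partners of the lipases. Fabp1 was named after its values were seen. Some genes of the lists are not reported here by name. No 2 libraries were copies (highest correlation within a group 0.987). Reads of near-identical genes may be misassigned.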

Additional observations from a re-analysis of the deposited data

Results flagged for a closer look

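Within the 35 sets of libraries examined (7 genes in 5 groups), 9 had a highest library that stood apart from the rest of its group by Dixon's gap over range. For normally distributed values chance marks about 1 set in 20. The rate for these FPKM values, which are skewed and come from shared libraries, was not measured. Of the 9 sets, 8 were of Lpl, Vldlr or Cd36. In 6 the library was sham 1, PHx24 1 or PHx48 3, which held the highest muscle and adipocyte sums of their groups. Lpl stood at 42.0 FPKM in sham 1 and 20.6 FPKM in PHx24 1. Vldlr stood at 3.17 FPKM in sham 1, 1.58 FPKM in PHx24 1 and 0.706 FPKM in PHx48 3. Cd36 stood at 28.8 FPKM in sham 1. The other 3 were Vldlr in PHx24_ETO 2 (1.25 FPKM), Cd36 in PHx24_ETO 3 (20.8 FPKM) and Lipg in PHx48_ETO 1 (3.52 FPKM). The part of muscle or fat RNA in these values was not tested.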

How the results depend on the processing

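Of the 9 called member results 4 kept their direction and their side of the threshold under every alternative run and 0 reversed. Library totals and TPM moved the median of all genes by up to 0.23 and 0.32. The labels do not say whether the replicate numbers pair the libraries. Deviations of same-numbered libraries from their group means correlated from -0.23 to 0.66 (45 pairs, median 0.02, 13 pairs over 0.1). Differently numbered pairs were not set beside them, so this does not settle it. Fitted all the same, the replicate block lost the Angptl6 call at 48 h against sham (-0.58, adjusted p = 0.0877) and gave 44 genes called with etomoxir at 48 h, against 26, and log2 values of 0.011 for Lpl at 48 h against sham, and -0.13 (Lpl) and 0.039 (Lipc) with etomoxir at 48 h. With etomoxir at 24 h 359 genes were called, but 764 by DESeq2, 196 with no filter, 0 with only the compared groups (0 members) and 138 to 1199 leaving out 1 library (1 to 3 members). At 48 h DESeq2 called 71, no filter 11 and leaving out 1 library 1 to 47. For the difference between the times 2 were called, 43 by DESeq2, 1 in TPM and 0 to 239 leaving out 1 library (0 to 1 members). From 24 h to 48 h no filter left 0 members called.

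Uncalled values that turned were these. Cd36 at 24 h against sham was -0.021 with median-of-ratios factors, -0.018 in DESeq2 and -0.021 with only the compared groups, and at 48 h 0.0083, 0.023 and 0.36 in limma on log2(FPKM + 1), log2(FPKM + 0.1) and TPM and 0.69 without the 4 libraries. Lpl at 48 h was 0.13 in TPM and 0.29 without the 4, and with etomoxir at 48 h -0.055 with library totals. Angptl6 with etomoxir at 24 h was 2.99e-06 with edgeR's own filter, 0.047, 0.077 and 0.055 in the 3 limma fits and 0.025 without the 4. Vldlr without the 4 was 1.11 and 0.82 at 24 h and 48 h against sham, and 0.59 and 0.063 with etomoxir.

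Leaving out 1 library gave these ranges where a value turned. Against sham at 24 h they were -1.76 to 0.28 (Lpl), -0.28 to 1.03 (Cd36) and -1.57 to 1.19 (Vldlr), and at 48 h -1.03 to 0.63 (Lpl), -0.55 to 0.72 (Cd36) and -1.86 to 0.54 (Vldlr). From 24 h to 48 h they were -0.36 to 0.026 (Angptl4) and -1.06 to 0.12 (Vldlr). With etomoxir at 24 h they were -0.14 to 0.17 (Angptl6) and -1.97 to 0.58 (Vldlr, with 0.086, 0.12 and 0.19 without PHx24_ETO 1, 3 and 4). With etomoxir at 48 h they were -0.15 to 0.16 (Angptl6), -0.13 to 0.34 (Lpl), -0.12 to 0.058 (Lipc) and -0.82 to 0.065 (Vldlr). For the difference between the times they were -0.22 to 0.17 (Angptl6) and -0.93 to 1.63 (Vldlr, with 0.25 without PHx48 3 and 0.13 without PHx48_ETO 2). The fits for Vldlr were chosen after seeing the data. Except where a named library was left out, the cause was not tested.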

Other observations

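The ratio of Angptl4 to Lpl FPKM within a library had a median of 8.15 in sham, 4.78 in PHx24 and 1.54 in PHx48. In PHx24_ETO it ranged from 27.9 to 79.5, above all libraries of sham (1.21 to 16.0) and PHx24 (1.02 to 8.98). In PHx48_ETO it ranged from 4.24 to 7.29, inside the PHx48 range of 0.779 to 10.9. These ratios combine values already described, use the deposited gene lengths and were not tested.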
